A study of Mus musculus with 6 samples.

Results

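Glutathione is the most abundant small thiol of mammalian cells. It is made from glutamate, cysteine and glycine by a pair of ATP-dependent ligases, is oxidized when peroxidases use it to reduce hydrogen peroxide and lipid peroxides, and is returned to its reduced form by glutathione reductase at the cost of NADPH. Glutathione transferases join it to electrophiles, and carriers of the ABC family export the conjugates. In macrophages this system meets the oxidants that the cells produce after activation, and several of its genes are textbook targets of the stress-responsive factor NRF2, which binds antioxidant response elements.

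The expression of 10 genes of glutathione synthesis and use was examined among 34827 gene names on a mouse microarray. Every array spot that is not a control and carries the name of one of these genes was taken, which gave 13 probes. The genes are *Gclc*, *Gclm* and *Gss* (synthesis), *Gsr* (recycling), *Gpx1* and *Gpx4* (peroxidases), *Gsta4*, *Gstm1* and *Gstp1* (transferases) and *Abcc1* (export). The measurements come from bone marrow–derived macrophages (BMDMs) of wild type female C57BL/6 mice (strain label C57/B6, and C57BL6/J in the paper). The labels describe the mice as 6 to 8 weeks old and the paper as somewhat older. Marrow cells were grown for 7 days in medium conditioned by L929 cells, so the culture is an in vitro model of macrophages. There were 3 groups of 2 arrays each, taken from independent experiments according to the description of the series. Untreated cells received nothing. LPS cells were stimulated for 4 h with lipopolysaccharide, the bacterial ligand of TLR4, at 100 ng/ml (a treatment label writes the unit as ng/μl). LPS+USP7i cells received 10 μM HBX41,108, a small molecule inhibitor of the deubiquitinase USP7, for 30 min before the same LPS stimulation. No source used here says whether LPS cells received the solvent of the inhibitor, so inhibitor and solvent cannot be told apart. There was also no group with the inhibitor alone.

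RNA was labelled with Cy3 and hybridized to 1-color Agilent arrays on 1 slide, where each group had its own position along one axis, so that treatment and slide position cannot be told apart. Along the other axis the replicate 1 arrays shared one position and the replicate 2 arrays the other. Between 25002 and 27467 spots per array were well above background and 0 were saturated, and the number of arrays limits the precision of every value. Replicate arrays correlated across 20721 probes, which are not independent of each other, with r = 0.995 in untreated, 0.993 in LPS and 0.991 in LPS+USP7i cells. All 9 macrophage markers examined were well above background on all 6 arrays. Their summed linear signal was 726828 to 733827 in untreated, 741602 to 751919 in LPS and 591328 to 628887 in LPS+USP7i cells. With the inhibitor added, 2 markers (*Cd14* and *Fcgr1*, named after their values were seen) were called lower than in LPS cells and 0 higher. The 9 differences were split, with 4 above 0 and 5 below (1 higher and 4 lower at an unadjusted p under 0.05). Between LPS and untreated cells, 1 marker was called higher with LPS and 1 lower. The summed linear signal of 8 neutrophil markers was 5249 to 6959 in untreated, 5887 to 11803 in LPS and 6204 to 9769 in LPS+USP7i cells. For 4 B cell markers the sum was 656 to 1043, 518 to 1140 and 281 to 685 in the same order. For 4 dendritic cell markers, 3 of them well above background on 0 arrays, it was 34.6 to 40.8, 99.4 to 126 and 78.8 to 89.7, and the fourth, *Zbtb46*, was called higher in LPS (adjusted p = 0.00435) and in LPS+USP7i (0.00809) than in untreated cells. The part of these marker differences and of such cells in the results below was not tested, and in bulk RNA fewer cells of a type and less RNA per cell cannot be told apart. *Usp7* itself had a log2 difference of 0.44 (SE 0.13, adjusted p = 0.101 by limma) with LPS and −0.14 (SE 0.13, adjusted p = 0.611) with the inhibitor added.

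Values are given as log2 of the background-corrected spot signal after quantile normalization, so that a difference of 1 is a 2-fold change. They are comparable between arrays for 1 probe and are not compared between probes. A gene was called when its adjusted p (limma over all 55680 probes, Benjamini-Hochberg) was under 0.05. A gene with several probes was counted by its brightest probe. With 2 arrays a group, an exact permutation test of a single gene cannot give a two-sided p below 0.333. In all, 9 of the 10 genes were well above background on all 6 arrays, and *Gsta4* was on 0 of them.

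In LPS+USP7i compared with LPS, *Gclc*, *Gclm* and *Gss*, the whole biosynthetic pathway from cysteine to glutathione, rose between 6.10-fold and 14.1-fold. The count was 3 of 10 genes called higher and 0 called lower by limma, where 5.42% of all gene names were called higher and 4.29% lower. Among the 15612 gene names well above background on all 6 arrays these shares were 9.54% and 7.48%. At an unadjusted p under 0.05, 6 of the 10 genes were higher and 0 lower, against 4938 and 4089 of the 34827 gene names. The 10 genes were chosen with earlier results of these data known, which limits what their count can show against these shares. The median log2 difference of the 10 genes was 0.79, against 0.00 over all gene names. All 10 differences were positive, that of the dim *Gsta4* included, as were 17427 of the 34827 over all gene names. That of *Gpx1* was −0.0085 without LPS replicate 1. Of the 9 genes well above background the median was 0.84, against 0.05 over all such gene names.

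In LPS compared with untreated cells, only *Abcc1* of the 10 genes was called higher and 0 were called lower by limma. Of all gene names 7.98% were called higher and 12.7% lower (14.1% and 23.9% of those well above background on all arrays). At an unadjusted p under 0.05, 1 of the 10 genes was higher and 4 lower, against 4353 and 7141 of the 34827 gene names. The balance of the calls over all gene names depended on the scaling. It was 2780 gene names higher and 4436 lower here, and 12180 higher and 4052 lower with each array scaled to its 75th percentile. The median log2 difference was −0.34, with 6 differences below 0 and 4 above, but it was 0.0020 with 75th percentile scaling, 0.038 without LPS replicate 2 and −0.061 without untreated replicate 1. For the 9 genes well above background it was −0.46, against −0.18 over all such gene names. Compared with untreated cells, LPS+USP7i cells had 5 of the 10 genes called higher (*Gclc*, *Gclm*, *Gss*, *Gsr* and *Abcc1*) and 0 called lower. Of all gene names 6.15% were called higher and 8.79% lower (10.8% and 16.5% of those well above background). At an unadjusted p under 0.05, 5 of the 10 genes were higher and 1 lower, against 4219 and 5812 of the 34827 gene names. With any single array left out fewer of the 10 genes were called higher, and a smaller share of all gene names as well. Over the 15 other settings the differences were 2.95 to 3.22 for *Gclc*, 2.94 to 3.71 for *Gclm* and 2.45 to 2.81 for *Gss*. Those of *Gsr* were 1.90 to 2.61 and those of *Abcc1* 1.11 to 1.47. With 75th percentile scaling 7 genes were called higher, with *Gsta4* (adjusted p = 0.0362) and *Gstm1* (0.0161) added. The calls over all gene names then went from 2141 higher and 3060 lower to 12211 higher and 3364 lower. These comparisons share arrays and are not independent of each other.

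**Figure D1:**
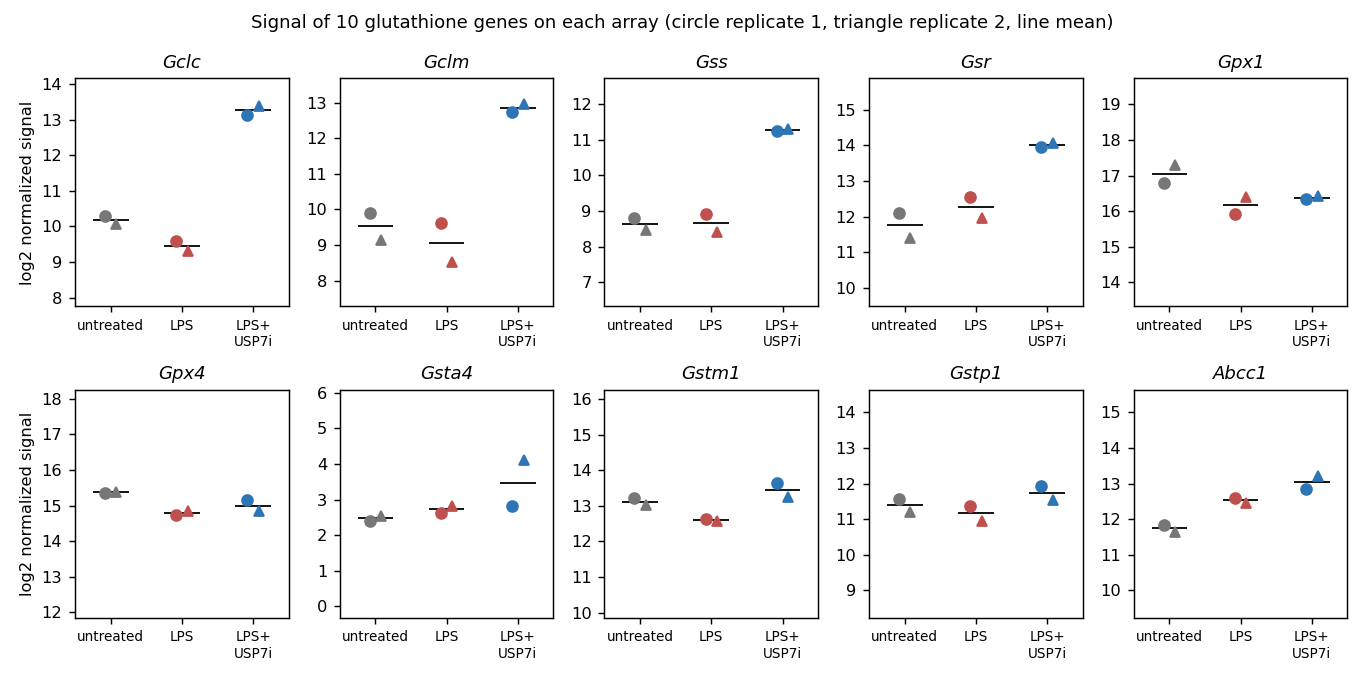
Log2 normalized signal (vertical axis, spanning the same height in log2 units in every panel) of the brightest probe of each gene in untreated, LPS and LPS+USP7i cells. Circles are replicate 1, triangles replicate 2 and lines group means. Both LPS+USP7i arrays lie above all 4 other arrays for *Gclc*, *Gclm*, *Gss*, *Gsr*, *Gstm1* and *Abcc1*, while both untreated arrays are the highest for *Gpx1* and *Gpx4*. How many of all gene names show these orders was not counted. For *Gstm1* the margin was 13.26 against 13.21, and *Gstm1*, *Gpx1* and *Gpx4* were called in no comparison under the settings used here.

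*Gclc* encodes the catalytic subunit of glutamate–cysteine ligase, the rate-limiting enzyme of glutathione synthesis. Its probe lies at chr9:77641296-77641355 (mm9, plus strand). For *Gclc* the untreated arrays read 10.28 and 10.06 (log2 signal), the LPS arrays 9.58 and 9.30, and the LPS+USP7i arrays 13.12 and 13.39. The 3 groups did not overlap, with LPS lowest and LPS+USP7i highest. With the inhibitor *Gclc* rose by 3.82 over LPS (SE 0.17, 95% interval 3.36 to 4.28, adjusted p = 0.0104 by limma), which is 14.1-fold, and it was 8.49-fold above untreated cells (adjusted p = 0.00587). The difference of LPS from untreated, −0.73 (SE 0.17), had an adjusted p of 0.0597, and it passed under 4 of 15 other settings.

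*Gclm* encodes the modifier subunit, which lowers the catalytic subunit's need for glutamate and its inhibition by glutathione. Its probe spans chr3:121962174-121964809 (mm9, plus strand). For *Gclm* the untreated arrays read 9.91 and 9.14 (log2 signal), the LPS arrays 9.61 and 8.52, and the LPS+USP7i arrays 12.75 and 12.95. Untreated and LPS cells overlapped, and both LPS+USP7i arrays were higher than the rest. *Gclm* rose by 3.79 over LPS (SE 0.48, 95% interval 2.47 to 5.10, adjusted p = 0.0282), or 13.8-fold, and it was 10.0-fold above untreated cells (adjusted p = 0.0252, and between 0.0780 and 0.109 without either untreated array or either LPS+USP7i array). In untreated and LPS cells its replicates were the furthest apart of the 3 synthesis genes, with an SD of 0.77 in LPS cells, and its 95% interval was the widest of the 3.

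*Gss* encodes glutathione synthetase, which adds glycine to the dipeptide made by the ligase. Its probe spans chr2:155389432-155390531 (mm9, minus strand). For *Gss* the untreated arrays read 8.80 and 8.46 (log2 signal), the LPS arrays 8.92 and 8.41, and the LPS+USP7i arrays 11.23 and 11.31. LPS and untreated cells were interleaved, with a difference of 0.03 (95% interval −0.59 to 0.66). With the inhibitor *Gss* rose by 2.61 over LPS (SE 0.22, 95% interval 1.99 to 3.23, adjusted p = 0.0166), or 6.10-fold, and it was 6.25-fold above untreated cells (adjusted p = 0.00998, or 0.0586 without untreated replicate 2).

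All 3 calls with the inhibitor depended on the spread shared with the untreated arrays. With either untreated array left out, or with only the LPS and LPS+USP7i arrays in the model, which is the same fit, 0 of the 10 genes were called higher. The adjusted p was then 0.0559 for *Gclc*, 0.0760 for *Gclm* and 0.0625 for *Gss*, while 0 gene names of the whole array were called and 5 of the 10 genes had an unadjusted p under 0.05 (4281 gene names higher and 3716 lower). *Gclm* also missed the threshold without LPS replicate 2 (adjusted p = 0.0674), without LPS+USP7i replicate 1 (0.102) and without LPS+USP7i replicate 2 (0.0866), and *Gss* without LPS+USP7i replicate 1 (0.0621). Without LPS replicate 2 or LPS+USP7i replicate 1 fewer of the 10 genes were called higher, and a smaller share of all gene names as well. Without LPS+USP7i replicate 1 those called were *Gclc* and the dim *Gsta4*, whose difference was then 1.38. The differences themselves stayed between 3.68 and 3.96 for *Gclc*, 3.24 and 4.33 for *Gclm*, and 2.35 and 2.87 for *Gss* over the 15 other settings.

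Promoter stretches of *Gclm* and *Gss*, which moved together, are shown from the RefSeq promoter table (build GRCm38.p6), each ending 1 base before the first annotated base of its gene. The table held entries for 6 of the 10 genes, among them *Gclm* and *Gss* but not *Gclc*, which is therefore not shown. Both strands of each entry, 250 bases before and 50 bases from a transcription start, were searched for the core letters of the antioxidant response element, TGACNNNGC. Capitals mark this core. The *Gclm* stretch is chr3:122245307-122245486, plus strand, and the *Gss* stretch is chr2:155592811-155593060, minus strand.
Gclm: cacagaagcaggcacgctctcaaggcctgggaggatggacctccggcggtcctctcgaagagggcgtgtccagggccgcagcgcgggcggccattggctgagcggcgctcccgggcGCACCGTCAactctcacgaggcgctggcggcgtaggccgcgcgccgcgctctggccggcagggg
Gss: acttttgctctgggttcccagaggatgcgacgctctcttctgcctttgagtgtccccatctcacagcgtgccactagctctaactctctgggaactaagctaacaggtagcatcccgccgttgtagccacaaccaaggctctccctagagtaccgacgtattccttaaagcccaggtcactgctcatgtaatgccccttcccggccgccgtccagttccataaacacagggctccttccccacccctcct

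The core in *Gclm* reads GCACCGTCA, which is TGACNNNGC on the strand opposite to the gene. These letters are not in the *Gss* window. Of the 6 genes with entries, *Gclm* alone held the antioxidant response element core. That was 1 of the 10 entries of these genes, while 12.4% of all 32851 entries hold the core. A match of letters is a description and not a binding site.

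*Gsr* encodes glutathione reductase, which uses NADPH to return oxidized glutathione to its reduced form. It was measured by a pair of neighbouring probes, at chr8:34808488-34808547 and chr8:34808413-34808472 (mm9, plus strand). The brighter *Gsr* probe read 12.12 and 11.41 on the untreated arrays, 12.56 and 11.98 on the LPS arrays, and 13.97 and 14.06 on the LPS+USP7i arrays. The second *Gsr* probe read 10.46 and 10.06, 11.22 and 10.59, and 12.51 and 12.82 in the same order. On both probes the LPS+USP7i arrays were the highest.

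With the inhibitor the brighter *Gsr* probe differed from LPS by 1.75 (SE 0.33, 95% interval 0.84 to 2.66), or 3.36-fold, with an adjusted p of 0.0593 by limma that did not pass. The second *Gsr* probe rose by 1.76 (SE 0.29), or 3.40-fold, and passed with 0.0455. The mean of both probes passed as well (adjusted p = 0.0409), and the gene passed under 5 of 15 other settings, with adjusted p values from 0.00878 to 0.180. Compared with untreated cells *Gsr* rose by 2.25 (SE 0.33, adjusted p = 0.0263), or 4.77-fold. That call was lost without any single one of the 6 arrays (adjusted p from 0.0536 to 0.102).

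**Figure D2:**
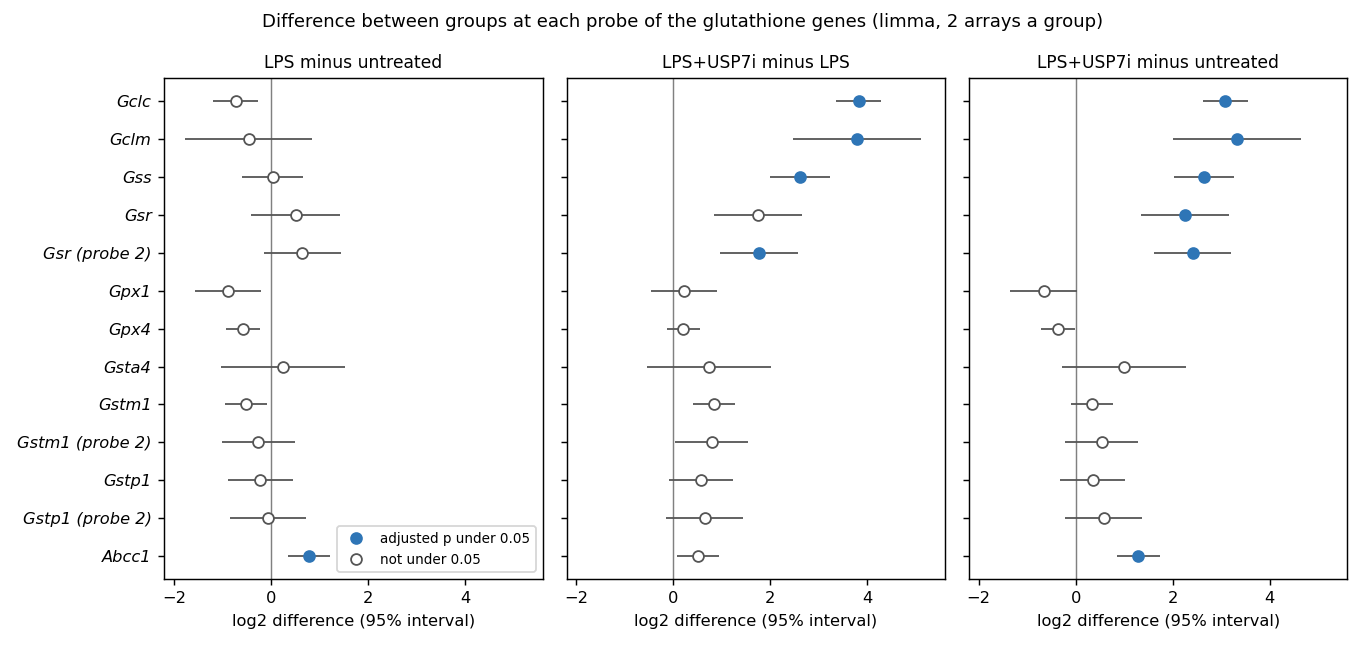
Log2 difference (horizontal axis) with its 95% interval for each of the 13 probes in the 3 comparisons. Filled points have an adjusted p under 0.05 by limma and open points do not. In LPS+USP7i minus LPS the synthesis genes lie between 2.61 and 3.82, *Gsr* at 1.75 and 1.76, and the other genes between 0.21 and 0.84.

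The peroxidases passed the threshold in none of the 3 comparisons under the settings used here, although both did in LPS minus untreated under some others, and *Gpx1* also did in LPS+USP7i minus untreated with normexp background correction (−0.73, adjusted p = 0.0481). *Gpx1* encodes the main cytosolic selenium-dependent peroxidase, which reduces hydrogen peroxide, and its probe lies at chr9:108242276-108242335 (mm9, plus strand). For *Gpx1* the untreated arrays read 16.79 and 17.30 (log2 signal), the LPS arrays 15.93 and 16.39, and the LPS+USP7i arrays 16.33 and 16.43. Untreated cells were the highest, and the LPS and LPS+USP7i arrays overlapped. The difference of LPS from untreated was −0.88 (SE 0.25, adjusted p = 0.0992), and it passed under 3 of 15 other settings (adjusted p = 0.0137 with normexp, 0.0324 with dim probes left out and 0.0431 with the replicate number as a block). The difference of LPS+USP7i from untreated was −0.66 (SE 0.25, adjusted p = 0.208), and −0.41 without untreated replicate 2. The difference of LPS+USP7i from LPS was 0.22 (95% interval −0.47 to 0.90, adjusted p = 0.703).

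*Gpx4* encodes the peroxidase that reduces lipid hydroperoxides in membranes and so protects from ferroptosis, and its probe spans chr10:79518691-79518842 (mm9, plus strand). For *Gpx4* the untreated arrays read 15.36 and 15.38 (log2 signal), the LPS arrays 14.73 and 14.85, and the LPS+USP7i arrays 15.15 and 14.85. The untreated arrays were again above the other 4. The difference of LPS from untreated was −0.58 (SE 0.13) with an adjusted p of 0.0533, just short of the threshold, and it passed under 7 of 15 other settings. Of these 7, the fit to only the 2 groups compared and the fits without either LPS+USP7i array are the same fit (adjusted p = 0.0314). With the inhibitor the difference from LPS was 0.21 (95% interval −0.14 to 0.56, adjusted p = 0.492), while the lowest 95% interval of a synthesis gene began at 1.99.

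The direction of *Gpx4* relative to untreated cells depended on the scaling. Scaling each array to its 75th percentile instead of quantile normalization moved the median of all gene names by 0.40 in LPS minus untreated and by 0.44 in LPS+USP7i minus untreated, and by 0.00 in LPS+USP7i minus LPS. Under that scaling *Gpx4* differed by 0.0031 and 0.044 from untreated cells in these 2 comparisons, below the shift of the whole array in both. *Gpx1* differed by −0.33 (adjusted p = 0.351) and −0.25 (adjusted p = 0.473) under that scaling. In LPS+USP7i minus LPS that scaling gave 3.83 for *Gclc*, 3.80 for *Gclm* and 2.61 for *Gss*, but lower values than quantile normalization for *Gsr* (1.60), *Gstm1* (0.67, called with an adjusted p of 0.0484), *Gstp1* (0.48), *Abcc1* (0.36), *Gpx1* (0.078) and *Gpx4* (0.041).

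Of the transferases, *Gstm1* encodes a mu class enzyme that conjugates a broad range of electrophiles. Its brighter probe is listed by the array's design at chr5:117082490-117082549 (mm9), which is not the chromosome of its second probe, chr3:107815595-107815654 (mm9, minus strand), so its assignment is uncertain. The brighter *Gstm1* probe read 13.21 and 13.02 on the untreated arrays, 12.63 and 12.58 on the LPS arrays, and 13.63 and 13.26 on the LPS+USP7i arrays. The second *Gstm1* probe read 12.04 and 11.91, 11.87 and 11.56, and 12.85 and 12.17 in the same order. On both probes LPS was the lowest group and LPS+USP7i the highest.

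The brighter *Gstm1* probe differed by 0.84 between LPS+USP7i and LPS (SE 0.16, adjusted p = 0.0581) and the second by 0.79 (SE 0.27, adjusted p = 0.200), and neither passed. The brighter probe passed under 5 of 15 other settings. *Gstp1* encodes the pi class enzyme, and was measured at chr19:4035908-4036723 and at chr19:4037306-4037365 (mm9, minus strand), where the second probe is annotated to transcripts of both *Gstp1* and its near-identical neighbour *Gstp2*. The brighter *Gstp1* probe read 11.57 and 11.21 on the untreated arrays, 11.38 and 10.96 on the LPS arrays, and 11.93 and 11.55 on the LPS+USP7i arrays.

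The second *Gstp1* probe read 10.54 and 10.17 on the untreated arrays, 10.60 and 9.99 on the LPS arrays, and 11.13 and 10.75 on the LPS+USP7i arrays. The difference between LPS+USP7i and LPS was 0.57 (95% interval −0.10 to 1.23, adjusted p = 0.291) on the brighter *Gstp1* probe and 0.64 (adjusted p = 0.319) on the second. With the replicate number as a block the brighter *Gstp1* probe was called (adjusted p = 0.0445). Replicate 1 was above replicate 2 in every group on both *Gstp1* probes. *Gsta4*, an alpha class enzyme that conjugates the lipid peroxidation product 4-hydroxynonenal, has 1 probe printed on 10 spots, which spans chr9:78046172-78047344 (mm9, plus strand). Most spots of *Gsta4* were not well above background, on each of the 6 arrays. Its log2 signal was 2.40 and 2.54, 2.63 and 2.82, and 2.81 and 4.10, so no fold is given, and 2 and 1 of its spots were left out as outliers on the LPS+USP7i arrays.

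*Abcc1* encodes the multidrug resistance protein MRP1, which exports glutathione conjugates and oxidized glutathione, and its probe lies at chr16:14474551-14474610 (mm9, plus strand). For *Abcc1* the untreated arrays read 11.84 and 11.65 (log2 signal), the LPS arrays 12.61 and 12.44, and the LPS+USP7i arrays 12.86 and 13.21. The groups did not overlap and stood in that order. *Abcc1* rose by 0.78 with LPS (SE 0.16, adjusted p = 0.0458), or 1.72-fold, the only one of the 10 genes called in that comparison.

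The further difference of *Abcc1* with the inhibitor, 0.51 (SE 0.16, 95% interval 0.07 to 0.95), had an adjusted p of 0.168, and LPS+USP7i cells were 2.44-fold above untreated cells (adjusted p = 0.0188). The call with LPS was lost with untreated replicate 1 (adjusted p = 0.121), untreated replicate 2 (0.187), LPS replicate 1 (0.171) or LPS replicate 2 (0.114) left out, and with the replicate number as a block (0.0870). The call of *Abcc1* between LPS+USP7i and untreated cells was lost without untreated replicate 1 (0.0761), untreated replicate 2 (0.0958) or either LPS array (0.0534).

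**Figure D3:**
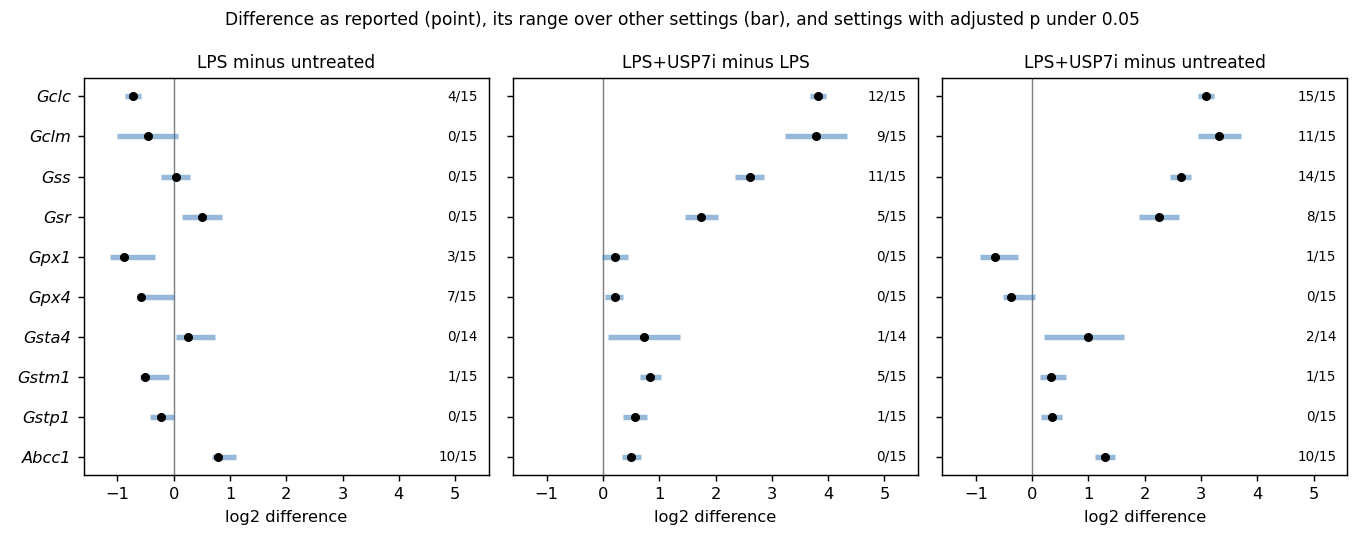
Log2 difference of each gene (points), its range over the other processing settings (bars, horizontal axis) and, at the right edge, the number of those settings in which the adjusted p was under 0.05. In LPS+USP7i minus LPS the bars of *Gclc*, *Gclm*, *Gss* and *Gsr* start at 1.46 or higher, while those of *Gpx1* and *Gpx4* touch or come near 0.

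The genes whose signal followed the called genes most closely over the 6 arrays were ranked by Pearson's r among 15611 other gene names well above background. The arrays fall into 3 groups, so r describes mainly the group means. *Gclc* was most like *Hmox1* (r = 0.999, n = 6), followed by *Clns1a*, *Afp*, an unnamed intergenic probe and *Srxn1* (r = 0.996). The closest to *Gclm* were *C030048H21Rik* (r = 0.998), *Srxn1* (r = 0.995), *Ywhag*, *Afp* and *D11Wsu99e* (r = 0.992), and the closest to *Gss* were *B430306N03Rik* (r = 0.998), *Cdkn2b*, *Vapa*, an unnamed transcript and *Ubap1* (r = 0.996). *Gsr* was most like an unnamed intergenic probe (r = 0.997), *Gm5215*, an unnamed probe, *Ppfibp2* and *Pias2* (r = 0.990), and *Abcc1* most like an unnamed transcript (r = 0.998), *Rock2*, *Ezr*, *Utp3* and *U2af1* (r = 0.991).

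Of 14 genes that supply the building blocks of glutathione or break it down, 3 were called higher and 2 lower with LPS, and 2 higher and 0 lower with the inhibitor, with median log2 differences of 0.06 and 0.00. With LPS, 7.98% of all gene names were called higher and 12.7% lower, and with the inhibitor 5.42% and 4.29%. Of those well above background on all 6 arrays, 14.1% and 23.9% were called with LPS, and 9.54% and 7.48% with the inhibitor. At an unadjusted p under 0.05, 4353 of 34827 gene names were higher and 7141 lower with LPS, and 4938 and 4089 with the inhibitor. These values are the reference for every list below. *Slc7a11*, the cystine importer subunit that limits cysteine supply, read 4.77 and 5.15 on the untreated arrays, 8.43 and 8.85 on the LPS arrays, and 10.45 and 11.22 on the LPS+USP7i arrays. *Slc7a11* rose in 2 steps, by 3.68 with LPS (SE 0.34, adjusted p = 0.00766) and by a further 2.20 with the inhibitor (adjusted p = 0.0406), and stood 58.6-fold above untreated cells.

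*Chac1*, an enzyme that degrades glutathione, fell by 1.71 with LPS (SE 0.27, adjusted p = 0.0251) and rose by 2.89 with the inhibitor (adjusted p = 0.0187), although in LPS cells it was well above background on only 1 of 2 arrays. *Cth*, which makes cysteine from cystathionine, did not clear background on the untreated arrays and was at least 10.6-fold higher with LPS (adjusted p = 0.00736), where the bound takes for the dim group the dimmest signal that still cleared background on the same array. *Ggct*, which cleaves gamma-glutamyl dipeptides, rose by 2.33 with LPS (SE 0.14, adjusted p = 0.00422), while its difference with the inhibitor was 0.01 (SE 0.14). The other genes of this list passed in neither comparison, apart from *Anpep*, which fell by 0.50 with LPS (adjusted p = 0.0469). At an unadjusted p under 0.05, 4 genes of the list were higher and 1 lower with the inhibitor.

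Of 12 other peroxidases, glutaredoxins and aldehyde-removing enzymes, 1 was called higher and 4 lower with LPS, and 2 higher and 0 lower with the inhibitor, with medians of −0.26 and 0.29. *Glrx*, a glutaredoxin that removes glutathione from protein thiols, rose by 1.23 with LPS (SE 0.11, adjusted p = 0.00683). With the inhibitor *Esd*, which releases glutathione from its formaldehyde adduct, rose by 1.08 (SE 0.06, adjusted p = 0.012) and the mitochondrial glutaredoxin *Glrx2* by 0.38 (SE 0.06, adjusted p = 0.0416). *Glrx2* had fallen by 0.33 with LPS (SE 0.06, adjusted p = 0.0353), and LPS+USP7i cells stood 0.06 from untreated cells. Its log2 signal was 18.35 and 18.43 on the untreated arrays, 18.06 and 18.06 on the LPS arrays, and 18.47 and 18.43 on the LPS+USP7i arrays. Whether quantile normalization narrowed the spread of so bright a probe was not tested. Of 6 other carriers, 0 were called higher and 1 lower with LPS and 0 in either direction with the inhibitor (1 higher and 1 lower at an unadjusted p under 0.05), with medians of −0.24 and 0.02.

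Of 21 other transferases, 1 was called higher and 3 lower with LPS and 5 higher and 2 lower with the inhibitor, with medians of −0.18 and 0.55. Of the 17 that were well above background on all arrays, 2 were called higher and 2 lower with the inhibitor, with a median of 0.21. Of all such gene names 9.54% were called higher and 7.48% lower. The alpha class genes *Gsta1* and *Gsta2* were well above background only in LPS+USP7i cells, where *Gsta1* read 5.64 and 6.37 and *Gsta2* 4.97 and 5.54. *Gsta1* was at least 2.86-fold higher than in LPS cells (adjusted p = 0.0134) and *Gsta2* at least 1.70-fold (adjusted p = 0.0126). These alpha class genes are near-identical in sequence, so their signals may not be separate.

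*Gsto1* rose by 0.97 (SE 0.11, adjusted p = 0.0256) and the microsomal *Mgst1* by 0.76 (SE 0.13, adjusted p = 0.0465). *Gstm6* was the other one called higher, but it was well above background on 0 of the 6 arrays. The theta class gene *Gstt1* moved the opposite way, up by 1.89 with LPS (SE 0.27, adjusted p = 0.0203), and it fell by 1.67 with the inhibitor (adjusted p = 0.0456), which left it 0.22 from untreated cells (SE 0.27). *Gstt3* was 1.30-fold lower with the inhibitor (adjusted p = 0.0476).

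Of 8 genes that supply NADPH, which *Gsr* consumes, 0 were called higher and 5 lower with LPS, and 3 higher and 0 lower with the inhibitor, with medians of −0.47 and 0.31. All 8 were well above background on all 6 arrays. Of all such gene names 14.1% were called higher and 23.9% lower with LPS, and 9.54% and 7.48% with the inhibitor. The 3 were malic enzyme *Me1*, which rose by 1.97 (SE 0.27, adjusted p = 0.0322), and *Taldo1* and *Pgd* of the pentose phosphate pathway, which rose by 1.30 (SE 0.13, adjusted p = 0.0209) and 1.25 (SE 0.21, adjusted p = 0.0472). *G6pdx*, which encodes the first enzyme of that pathway, differed by 0.30 (SE 0.06, adjusted p = 0.0739) and did not pass. At an unadjusted p under 0.05, 5 of the 8 were higher and 0 lower with the inhibitor, and 0 higher and 6 lower with LPS. Of all 34827 gene names 4938 were higher and 4089 lower with the inhibitor, and 4353 and 7141 with LPS.

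Of 15 genes of the parallel thioredoxin, peroxiredoxin and quinone defence, 3 were called higher and 3 lower with LPS and 5 higher and 0 lower with the inhibitor, with medians of −0.25 and 0.29. All 15 were well above background on all 6 arrays, where the shares over gene names were again 14.1% and 23.9%, and 9.54% and 7.48%. Heme oxygenase *Hmox1* rose by 4.52 with the inhibitor (SE 0.26, adjusted p = 0.0114), or 23.0-fold. Sulfiredoxin *Srxn1* rose by 3.96 (adjusted p = 0.0145), the peroxiredoxins *Prdx6* and *Prdx1* by 2.25 (adjusted p = 0.0126) and 1.21 (adjusted p = 0.0151), and thioredoxin reductase *Txnrd1* by 1.90 (adjusted p = 0.0104).

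*Txnrd1* had already risen by 1.29 with LPS (SE 0.08, adjusted p = 0.0042). Of the other genes of that list, *Prdx5* rose by 1.12 with LPS (adjusted p = 0.00602) and *Txnip*, an inhibitor of thioredoxin, fell by 1.91 (adjusted p = 0.0127). Of 6 genes for NRF2 and its partners, 3 were called higher and 1 lower with LPS and 2 higher and 0 lower with the inhibitor, with medians of 0.23 and 0.79. The small Maf partner *Mafg* rose by 2.42 with the inhibitor (SE 0.07, adjusted p = 0.00992) and the competing repressor *Bach1* by 0.87 (SE 0.13, adjusted p = 0.0360). *Maff* rose by 4.27 (adjusted p = 0.00395) and *Mafk* by 2.41 (adjusted p = 0.00431) with LPS. The calls of these lists with the inhibitor, like those of all gene names, were lost with either untreated array left out. The gene for NRF2 itself, *Nfe2l2*, differed by 0.70 with the inhibitor (SE 0.22, adjusted p = 0.164).

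**Figure D4:**
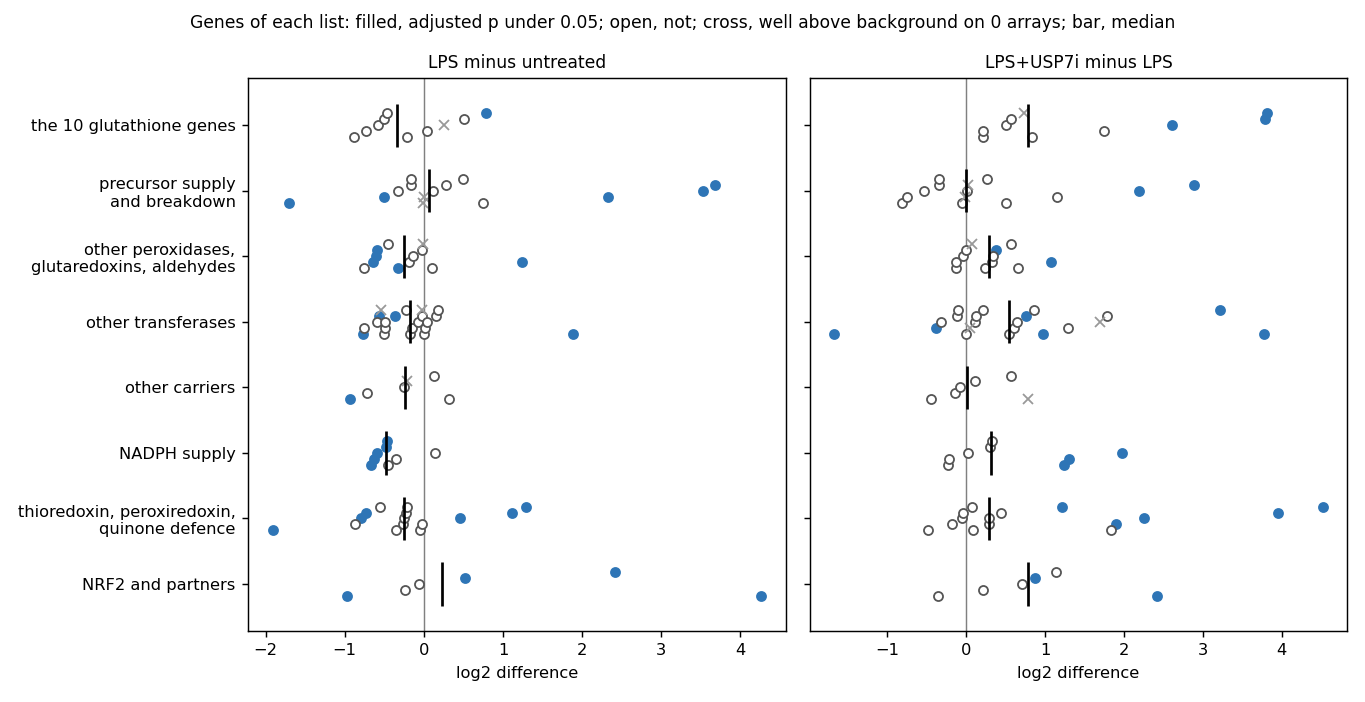
Log2 difference (horizontal axis) of every gene of each list for LPS minus untreated (left) and LPS+USP7i minus LPS (right). Filled points have an adjusted p under 0.05 by limma, open points do not, crosses are genes well above background on 0 arrays, and bars are medians. In the right panel the 10 glutathione genes and the list of NRF2 and its partners share a median of 0.79.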

How the data were processed

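The authors deposited the scanner output of 6 one-color Agilent arrays (Feature Extraction 10.7.3.1), with background-corrected spot intensities, and a table of log2 values. Across all spots the deposited log2 table matched quantile-normalized normexp values of the median signal (r = 1.00, slope 1.01, median difference 0.012 in log2 units), so its scale, centring and direction are known. Its column medians lie between 5.07 and 5.10. The methods name limma, quantile normalization and an adjusted p of 0.05. Here the processed intensity of 59305 spots that are not controls was set to log2, outlier spots were left out, and arrays were quantile-normalized with limma 3.58.1 (R 4.3.3). Spots of a probe were averaged, and lmFit and eBayes were run on all 6 arrays (3 residual degrees of freedom), with p-values adjusted over 55680 probes. A probe counted as well above background when most of its spots did. Genes were placed by the array's own annotation (mm9). The 10 genes and the lists were chosen with earlier results of these data known. From the lists, genes were named when called with the inhibitor or called with LPS at a log2 difference of at least 1, and *Anpep*, *G6pdx* and *Nfe2l2* were added after their values were seen. The model was tested on simulated data. Other scalings, filters, samples and designs were tried.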

Additional observations from a re-analysis of the deposited data

How the results depend on the processing

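In LPS+USP7i minus LPS, between 0 and 5 of the 10 genes were called higher: 5 with normexp background correction, with dim probes left out and with a trended prior, 0 with only the 2 groups compared, and 0 to 3 with each array left out in turn. The share of all gene names called higher moved as well, from 5.42% to 8.18% with normexp, 2747 of 18327 gene names with dim probes left out (which leaves 9 of the 10 genes) and 5.74% with a trended prior. No gene was called lower there under any setting. In LPS+USP7i minus untreated the count was 7 with 75th percentile scaling and 3 with only the 2 groups compared. All gene names called higher there were 35.1% and 3.88%, against 6.15% under the settings used here. Both the count and this share were lower than under those settings with each array left out. With normexp 1 gene was called lower, where 11.6% of all gene names were, against 8.79% under the settings used here. In LPS minus untreated, 0 genes were called higher with a replicate block or with a log2 difference of at least 1 required. All gene names called higher there were 8.41% and 5.75%, against 7.98% under the settings used here. With each array of these 2 groups left out, the difference of *Abcc1* was 0.68 to 0.88. The count called lower was 4 with normexp, 3 with dim probes left out, 2 with a trended prior, 2 with the mean over all probes, 1 with only the 2 groups compared, 1 with a replicate block, and 0 to 1 with each array left out. All gene names called lower there were 15.2% with normexp, 28.2% with dim probes left out, 12.7% with a trended prior, 12.9% with the mean over all probes, 11.5% with only the 2 groups compared and 13.4% with a replicate block.

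Same-numbered arrays deviated together (r from 0.398 to 0.468 over 20721 probes) and shared a position along one axis of the slide, and the labels do not say that a number marks a shared experiment. With a replicate block 4 of the 10 genes were called higher in LPS+USP7i minus LPS, *Gstp1* among them (adjusted p = 0.0445). All gene names called higher there were 4.05%, against 5.42% without the block.

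With 75th percentile scaling the sign turned for *Gpx4* (0.0031) and *Gstp1* (0.00095) in LPS minus untreated, for the median of the 10 genes there (0.0020), and for *Gpx4* in LPS+USP7i minus untreated (0.044), none of them past the threshold. With each array left out, *Gclm* ranged from −1.01 to 0.083, *Gss* from −0.22 to 0.29 and the median from −0.48 to 0.038 in LPS minus untreated, and *Gpx1* from −0.0085 to 0.44 in LPS+USP7i minus LPS. Of the values of single genes under the other settings, 374 kept their direction and call, 35 lost the call, 31 gained it and 7 turned sign. Leaving out an array of the group that a comparison does not use gives the same fit as only the 2 groups compared, so these settings are not separate in that tally. Causes were not tested. Leaving out an array of a group keeps its lone partner, which is assumed to vary like the other groups.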
